A study of Mus musculus with 2 samples.

Results

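The genes described here are those of the proteasome and of the factors that build it, chosen as the mouse genes whose symbol begins with Psma to Psmg followed by a digit. A probe set is the group of array probes that reads 1 transcript, and where a gene had several, that with the highest mean over both arrays stands for it. In all, 56 probe sets named such a gene alone, and they gave 50 of the 19935 genes measured. Of the 50, 48 encode parts of the proteasome, its regulators or its assembly factors, whereas Psmc3ip and Psme3ip1 match the pattern but encode binding partners of other kinds and are kept apart.

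RNA came from Ba/F3, an established pro-B-like line of mouse cells that needs interleukin-3 (IL-3) to grow, made to express BCR-ABL, the fusion kinase of chronic myeloid leukaemia. All cells were grown with 10% serum and 5% antibiotic. They were treated for 6 h with imatinib, an ABL kinase inhibitor, at 5 µM (the labels write the unit with a small m). Of the 2 arrays, 1 (titled Live-IL3) held cells also given IL-3, in which cells are described as resistant, and 1 (titled Live-NoIL-3) held cells grown without it, described as sensitive. Cells without imatinib are not analysed here, and with 1 array per group no difference below has a replicate error or a test. Each array value is a log value relative to a baseline that the authors set for each probe set, so it carries no expression level; a difference is the value with IL-3 minus that without, read as log2. The title gives the direction, but the description of the Live-IL3 array says that its cells had no IL-3. If the labels were exchanged, or if higher values meant less RNA, every difference would change sign.

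The proteasome degrades proteins that carry ubiquitin chains. Its barrel, the 20S core, has outer rings of alpha subunits and inner rings of beta subunits, of which β1, β2 and β5 cut peptide bonds, and the 19S cap binds the chain, removes it and unfolds the substrate with a ring of ATPases. In cells exposed to interferon, and constitutively in many blood cells, the cutting subunits can be replaced by those of the immunoproteasome, and other caps such as the PA28 activators can take the place of 19S. Chaperones guide the assembly of each part and leave it afterwards.

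Genes of the standard core and cap were higher on the array with IL-3, by less than 2-fold if read as log2, whereas the immunoproteasome genes lay close to 0. Of 31 core and cap genes, 30 had a difference above 0 (27 with the loess trend, explained next, subtracted), against 59.8% of all genes, and their median difference was 0.48 (1.40-fold) against 0.04 for all genes. At least 1.5-fold higher were 9 of the 31 (3.52% of all genes), namely Psma5, Psmb3, Psmb4, Psmb5, Psmb7, Psmc4, Psmc5, Psmd1 and Psmd2, and 0 were at least 1.5-fold lower (2.71%). At least 2-fold higher were 0 of the 48 proteasome genes (0.441%), and at least 2-fold lower 0 (0.657%); if the values are natural logs, 2 genes, Psmb3 and Psmc4, would be at least 2-fold higher. The 17 proteasome genes outside core and cap had a median of 0.04, with 10 above 0.

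Both arrays lay above the baseline for 45 of the 48 genes, against 34.3% of all genes. Differences scattered more among genes high above the baseline, with a scaled median absolute deviation of 0.42 in the highest 25% of genes by the mean of both arrays against 0.17 over all genes, and 38 of the 48 genes were in that 25%. There, 61.0% of all genes were above 0 and 12.8% at least 1.5-fold higher, with a median of 0.11. Of the 26 core and cap genes in it, all were above 0 and 9 at least 1.5-fold higher, with a median of 0.50. That 25% was set by the same 2 arrays, so a high value on 1 array can bring a gene in, as for Psmc4 (0.72 with IL-3, -0.05 without). It also leaves out Psmb1, the only core or cap gene not above 0. The counts in it are therefore in part made by the choice. When the trend of the difference on the mean was subtracted by loess, a local regression, the median of the 31 genes was 0.31, 27 of them were above 0 (51.1% of all genes) and 2 at least 1.5-fold higher (1.79%). The core and cap genes thus kept a positive median on both scales, but the number past 1.5-fold depended on the scale.

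**Figure D1:**
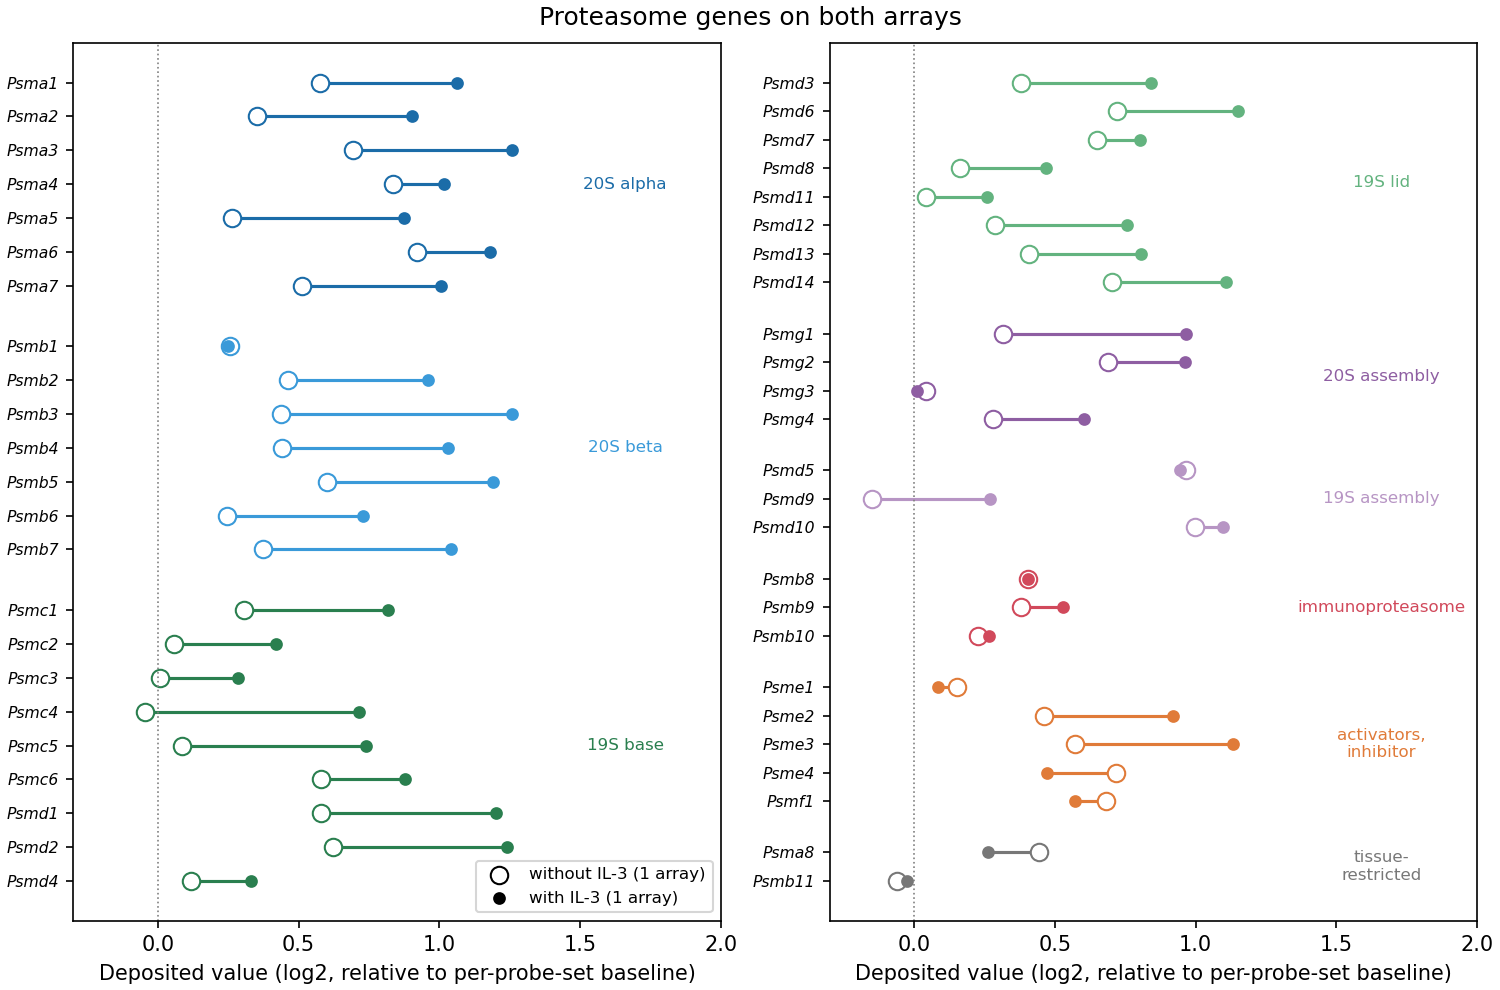
Deposited values of the 48 proteasome genes (horizontal axis, log2 relative to the baseline of each probe set; dotted line, baseline) on the array without IL-3 (open circles) and the array with IL-3 (filled circles), by place in the complex. The filled circle lies to the right in 40 of the 48 genes on the deposited scale and in 36 after the loess trend was subtracted, and the circles of Psmb1 and Psmb8 coincide.

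The 7 alpha subunit genes, which form the outer rings and the gate of the barrel, were all higher with IL-3, or 5 of 7 after loess (median 0.50, 0.25 after loess). Psma5, which encodes α5, had 0.87 with IL-3 and 0.26 without, a difference of 0.61 (1.53-fold). Psma3 had 1.26 and 0.69, a difference of 0.56, and Psma2 had 0.90 and 0.35, a difference of 0.55. These were the widest gaps in the alpha rings on the deposited scale. After loess Psma3 fell to 0.24, below Psma2 at 0.40 and Psma1 at 0.25. Psma1 differed by 0.49 (1.06 against 0.58). Psma6 and Psma4 stood lowest, at 0.26 (1.18 against 0.92) and 0.18 (1.02 against 0.84), and both turned below 0, to -0.10 and -0.11, after loess.

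The beta subunit genes had the highest median of all groups, 0.59 (0.39 after loess), with 6 of 7 above 0. Psmb3, which encodes the non-catalytic subunit β3, had 1.26 with IL-3 and 0.44 without. Its difference of 0.82 (1.77-fold) was the largest of the 48 genes on the deposited scale. After loess it was 0.57, below the cap genes Psmc4 at 0.73 and Psmc5 at 0.60. Psmb7 (β2, which cuts after basic residues) had 1.04 and 0.37, a difference of 0.67. Psmb5 (β5, the chymotrypsin-like site and the main target of bortezomib) had 1.19 and 0.60, a difference of 0.59. Psmb4 (β7) had nearly the same difference as Psmb5, also 0.59, and after loess Psmb5, at 0.31, stood below both Psmb4 and Psmb6, at 0.39 and 0.40. Psmb2 differed by 0.50 (0.96 against 0.46) and Psmb6 (β1, which cuts after acidic residues) by 0.48 (0.73 against 0.25). Psmb1 (β6) had 0.25 on both arrays and was the only one of the 14 standard core genes without a positive difference on the deposited scale.

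In the 19S base, which holds the ATPase ring, all 9 genes were higher with IL-3 (median 0.51, 0.35 after loess). Psmc4 (the ATPase Rpt3) had 0.72 with IL-3 and -0.05 without, a difference of 0.76 (1.70-fold), the largest of the cap. Psmc5 (Rpt6) had 0.74 and 0.09, a difference of 0.65. Psmd1 (Rpn2), a scaffold of the base, had 1.20 and 0.58, a difference of 0.62. At the other end stood the ATPase genes Psmc6, at 0.30 (0.88 against 0.58), and Psmc3, at 0.28 (0.28 against 0.01). Psmd4, the ubiquitin receptor Rpn10, differed by 0.22 (0.33 against 0.12). After loess Psmd1, at 0.35, was no longer among the 3 highest of the base, and Psmc6, at 0.11, was the lowest. The ATPases, whose products enter the ring in equal numbers, spanned 0.28 to 0.76.

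The 8 lid genes were also all higher with IL-3, or 7 of 8 after loess, within a narrower range, with a median of 0.40 (0.24 after loess) and 0 past 1.5-fold. Psmd12 (Rpn5) had 0.76 and 0.29, a difference of 0.47. Psmd3 (Rpn3) differed by 0.46 (0.84 against 0.38), and Psmd6 (Rpn7) by 0.43 (1.15 against 0.72). Psmd14, the deubiquitinase Rpn11 that strips the chain from the substrate, lay between them and the low end at 0.41. The low end held Psmd8 (Rpn12) at 0.30 (0.47 against 0.16), Psmd11 (Rpn6) at 0.21 (0.26 against 0.04) and Psmd7 (Rpn8, the partner of Rpn11) at 0.15 (0.80 against 0.65). Psmd7 turned to -0.04 after loess. The order of others also changed: Psmd8 at 0.28 and Psmd11 at 0.21 then stood above Psmd6 at 0.13 and Psmd14 at 0.12. Core and cap genes not given with values lay inside the range of their set.

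Repeat probe sets give a measure of the scatter within these arrays. Of the 50 genes, 5 had several, and their differences varied with a pooled SD of 0.06, against 0.14 over all 998 such genes; some of these probe sets may read near-identical copies of the gene, so both are lower bounds of the error. The 3 probe sets of Psma3 gave 0.56, 0.58 and 0.61. Those of Psma5 gave 0.54 and 0.61, those of Psmb3 0.68 and 0.82, those of Psmc1 0.37 and 0.51, and those of Psmd2 0.56 and 0.62. All 11 were above 0 (59.8% of all genes). They read only 5 genes on the same arrays, so they are not independent readings.

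**Figure D2:**
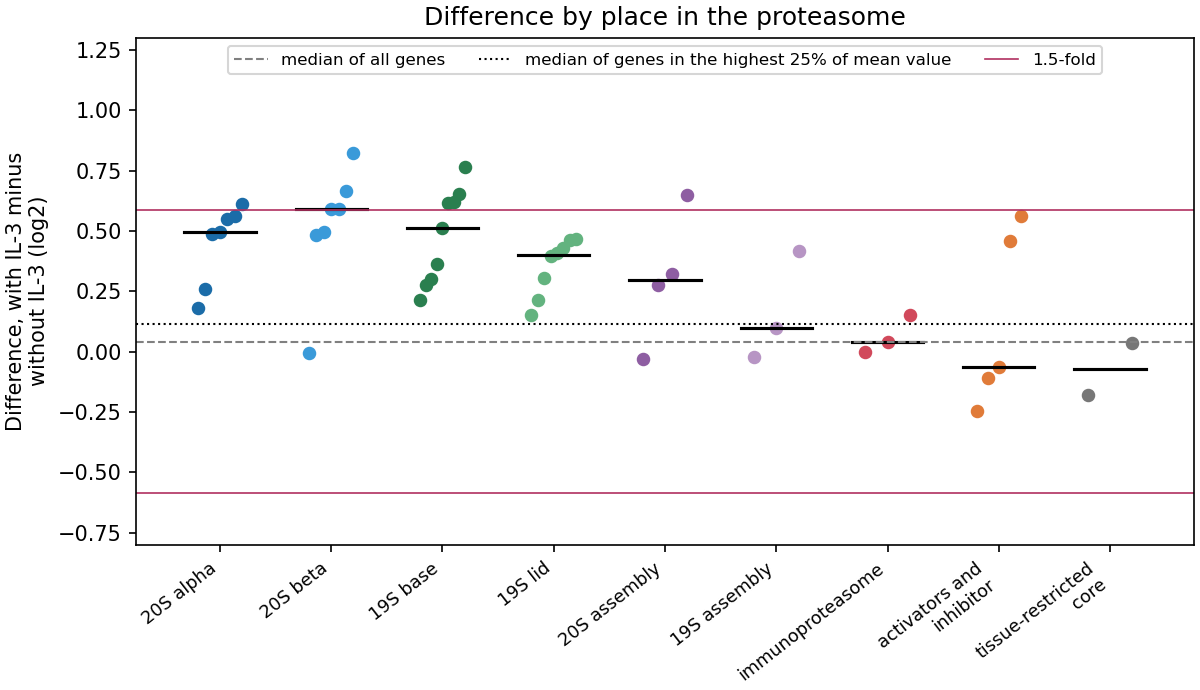
Difference between the arrays (vertical axis, log2, with IL-3 minus without IL-3) for each of the 48 genes, by place in the complex; black bars are group medians and horizontal lines mark the medians of all genes and of the highest 25%, and 1.5-fold. The medians of the 4 core and cap sets lie between 0.40 and 0.59 on this scale and between 0.24 and 0.39 after loess, those of the immunoproteasome, activators and tissue-restricted core between -0.07 and 0.04.

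The immunoproteasome genes stayed close to 0. Some core and cap genes lay as low, with Psmb1 at -0.004, Psmd7 at 0.15 and Psma4 at 0.18. After loess all of these were below 0. Psmb8 (β5i) had 0.40 on both arrays. Psmb10 (β2i) had 0.27 with IL-3 and 0.23 without, a difference of 0.04. Psmb9 (β1i) had 0.53 and 0.38, a difference of 0.15, which is about the size of the probe set scatter. Each was thus exceeded by the standard subunit it replaces: the difference of Psmb5 was larger than that of Psmb8 by 0.59, that of Psmb7 larger than that of Psmb10 by 0.63, and that of Psmb6 larger than that of Psmb9 by 0.33. After loess the standard subunits stood at 0.31, 0.48 and 0.40, and Psmb8, Psmb10 and Psmb9 at -0.06, 0.03 and 0.08. The gap is between differences on 1 pair of arrays and was not tested.

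Genes that share interferon control with the immunoproteasome lay on the other side. Of a list of 20 antigen presentation and interferon genes, 15 were measured alone, and 13 of them were below 0 (40.1% of all genes), Nlrc5 at only -0.01, with a median of -0.31 (-0.32 after loess) and 5 at least 1.5-fold lower, against 2.71% of all genes. The 5 were Irf7, Irf9, Tap2, Oasl2 and Usp18, named after their values were seen. Psmb8 and Psmb9 lie in the class II region of the major histocompatibility complex, where, in the gene order of GRCm38.p6, Psmb9 neighbours Tap1, and Psmb8 lies between Tap1 and Tap2, the genes of the peptide transporter. Tap1 had 0.14 with IL-3 and 0.36 without, a difference of -0.23. Tap2 had -0.20 and 0.52, a difference of -0.72. Of the 4 neighbours, both transporter genes were thus below 0. Psmb8 was at 0.00 and Psmb9 at 0.15, about the size of the probe set scatter, so these show no clear direction.

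**Figure D3:**
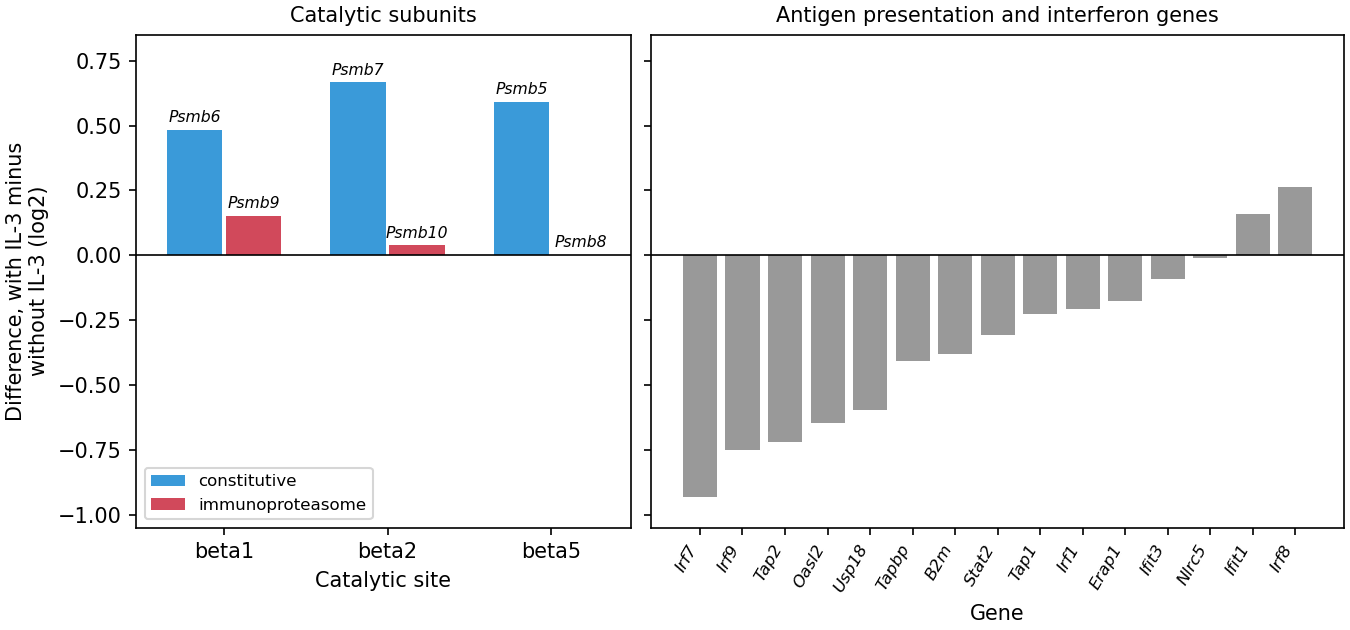
Difference between the arrays (vertical axis, log2, with IL-3 minus without IL-3; 1 array each, so no error bars) for the standard and immunoproteasome subunit at each catalytic site (left) and for the 15 measured antigen presentation and interferon genes (right). The blue bars of Psmb6, Psmb7 and Psmb5 reach 0.48 to 0.67, the red bars at most 0.15, and 13 of the 15 grey bars point down, as 13 did after loess.

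Promoter sequences from RefSeq (GRCm38.p6) were at hand for 40 of the 48 genes. The 250 bases before the start of transcription are shown for Psmb5 and Psmb6 with the immunoproteasome genes that replace them, Psmb8 and Psmb9. They are also shown for Psmb3 and Psmc4, which had the largest differences of core and cap on the deposited scale. Capitals mark, on either strand, TGACNNNGC (core of the antioxidant response element, which NRF1 of the Nfe2l1 gene and NRF2 bind), GCGCA (part of the site of the unrelated nuclear respiratory factor), CCAAT (bound by NF-Y) and GAAANNGAAA (repeat bound by interferon regulatory factors, added after the values were seen). GCGCA matches on opposite strands can overlap and were each counted.
Psmb5 (chr14:54617996-54618245, - strand): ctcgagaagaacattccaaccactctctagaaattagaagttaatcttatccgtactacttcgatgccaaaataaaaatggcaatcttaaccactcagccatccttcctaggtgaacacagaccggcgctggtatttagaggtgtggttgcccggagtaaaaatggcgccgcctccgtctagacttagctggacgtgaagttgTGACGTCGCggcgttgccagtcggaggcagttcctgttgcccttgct
Psmb8 (chr17:34197945-34198194, + strand): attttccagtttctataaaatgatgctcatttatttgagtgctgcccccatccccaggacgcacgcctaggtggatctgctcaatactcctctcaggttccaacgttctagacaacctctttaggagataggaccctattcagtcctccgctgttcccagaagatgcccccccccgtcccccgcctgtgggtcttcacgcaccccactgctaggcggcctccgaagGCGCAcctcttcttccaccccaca
Psmb6 (chr11:70525107-70525356, + strand): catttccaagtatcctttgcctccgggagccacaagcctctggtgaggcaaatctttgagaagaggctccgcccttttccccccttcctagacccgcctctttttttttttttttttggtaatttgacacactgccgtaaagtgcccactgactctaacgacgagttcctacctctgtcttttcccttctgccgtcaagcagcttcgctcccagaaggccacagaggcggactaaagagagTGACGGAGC
Psmb9 (chr17:34187331-34187580, - strand): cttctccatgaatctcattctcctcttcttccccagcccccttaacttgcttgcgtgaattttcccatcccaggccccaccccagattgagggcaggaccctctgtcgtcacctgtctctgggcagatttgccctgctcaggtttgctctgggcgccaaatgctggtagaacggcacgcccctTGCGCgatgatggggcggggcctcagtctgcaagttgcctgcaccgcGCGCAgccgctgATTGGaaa
Psmb3 (chr11:97703184-97703433, + strand): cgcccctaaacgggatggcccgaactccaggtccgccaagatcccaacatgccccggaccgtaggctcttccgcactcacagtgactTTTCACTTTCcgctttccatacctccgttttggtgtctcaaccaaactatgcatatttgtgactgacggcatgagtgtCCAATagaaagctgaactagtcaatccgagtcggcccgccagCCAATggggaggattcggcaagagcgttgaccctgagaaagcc
Psmc4 (chr7:28050093-28050342, - strand): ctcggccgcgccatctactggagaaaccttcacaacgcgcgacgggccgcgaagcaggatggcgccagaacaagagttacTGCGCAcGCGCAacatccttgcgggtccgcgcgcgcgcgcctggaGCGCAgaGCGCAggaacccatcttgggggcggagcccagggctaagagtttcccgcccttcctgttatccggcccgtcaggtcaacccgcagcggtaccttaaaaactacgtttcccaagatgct

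Psmb5 and Psmb6 each held 1 TGACNNNGC match, from 47 to 39 and from 9 to 1 bases before the start, and Psmb8 and Psmb9 held 0. Psmb3 and Psmc4, with the largest differences, also held 0. Of all 40 proteasome genes with a promoter at hand, 5 (12.5%) held this match, near the 10.1% of all promoters. Among the 25 core and cap genes with a promoter at hand, 4 (16.0%) held this match, against 10.1% of 27025 promoters of the same length; besides Psmb5 and Psmb6 these were Psmc6 and Psmd12. GCGCA was present in 12 of the 25 (48.0%) against 25.8%, with 5 matches in Psmc4, and in 2 of the 3 immunoproteasome windows, Psmb8 and Psmb9. CCAAT was present in 10 (40.0%) against 34.5%, with 2 matches in Psmb3. GAAANNGAAA was present in 2 of the 25, Psmb3 and Psmd4, against 3.04% of all promoters, and in 0 of the 3 immunoproteasome windows. These are matches of letters and do not show that a factor binds.

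The activators and the inhibitor of the core went different ways. Psme3, which encodes the nuclear activator PA28γ, had 1.13 with IL-3 and 0.57 without, a difference of 0.56 (1.47-fold). Psme2 (PA28β) had 0.92 and 0.46, a difference of 0.46, but a probe set that the annotation assigns to Psme2 together with Psme2b gave -0.12. Its partner Psme1 (PA28α) differed by -0.07 (0.09 against 0.15). The readings of Psme2 disagree, so it cannot be said whether the partner chains of the interferon-inducible activator differed alike. Psme4, the activator PA200, had 0.47 and 0.72, a difference of -0.25 (1.19-fold lower), the lowest of the 48 genes on the deposited scale and after loess (-0.38). Psmf1, the inhibitor PI31, had 0.57 and 0.68, a difference of -0.11.

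Among the assembly factors, 5 of 7 were above 0 (59.8% of all genes), or 4 after loess (51.1% of all genes). These shares are not far from those of all genes. The median was 0.27 (0.03 after loess), and the spread was wide. Psmg1, which with Psmg2 forms the dimer that starts the alpha ring, had 0.96 with IL-3 and 0.32 without, a difference of 0.65 (1.57-fold). Its dimer partner Psmg2 had 0.96 and 0.69, a difference of 0.27 (0.03 after loess). In the second dimer of alpha ring chaperones, Psmg4 had 0.60 and 0.28, a difference of 0.32, while Psmg3 had 0.01 and 0.04, a difference of -0.03. In both dimers, then, the partners differed by unequal amounts. The chaperones of the 19S base did so too. Psmd9 (p27) had 0.27 and -0.15, a difference of 0.42. Psmd10, the oncoprotein gankyrin, had 1.10 and 1.00, a difference of 0.10 that turned to -0.07 after quantile normalization and -0.26 after loess. Psmd5 (S5b) had 0.94 and 0.97, a difference of -0.02 that was -0.19 after quantile normalization and -0.33 after loess.

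The tissue-restricted core genes were examined as a contrast. Psma8, the alpha subunit of the testis, had 0.26 with IL-3 and 0.44 without, a difference of -0.18. Psmb11, the thymus subunit β5t and the neighbour of Psmb5, had -0.03 and -0.06, a difference of 0.03.

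Other genes of the ubiquitin-proteasome system were taken from a list of 33, of which 23 were measured alone. Of the 23, 17 were above 0, a larger share than the 59.8% of all genes. After loess 12 of the 23 were above 0, a share near the 51.1% of all genes. The median of the 23 was 0.07, and 0 were at least 1.5-fold higher (3.52%) or lower (2.71%), with 1 lower, Zfand5, after loess. Uchl5, a deubiquitinase of the cap, had 1.23 with IL-3 and 0.65 without, a difference of 0.58 (0.28 after loess). Usp14, which also trims chains at the cap, differed by 0.48 (1.25 against 0.78), or 0.14 after loess. The shuttle factors, which carry ubiquitinated proteins to the cap, were split: Ubqln4 differed by 0.56, Rad23b by 0.49 and Ubqln1 by 0.38, but Ubqln2 by -0.40. Zfand5, which encodes an activator of 26S proteasomes, had 0.52 and 1.08, and its difference of -0.57 was the lowest of the list. Zfand2a and the ubiquitin-activating enzyme gene Uba6 completed the low end at -0.09 and -0.04. The 5 genes of the VCP segregase lay between -0.03 and 0.10, but after loess their median was -0.19 and 2 of them were above 0. Of the transcription factors that induce proteasome genes, Nfe2l2 (NRF2) differed by -0.41 (0.31 against 0.72), and Nfe2l1 (NRF1), named after its value was seen, by 0.04.

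**Figure D4:**
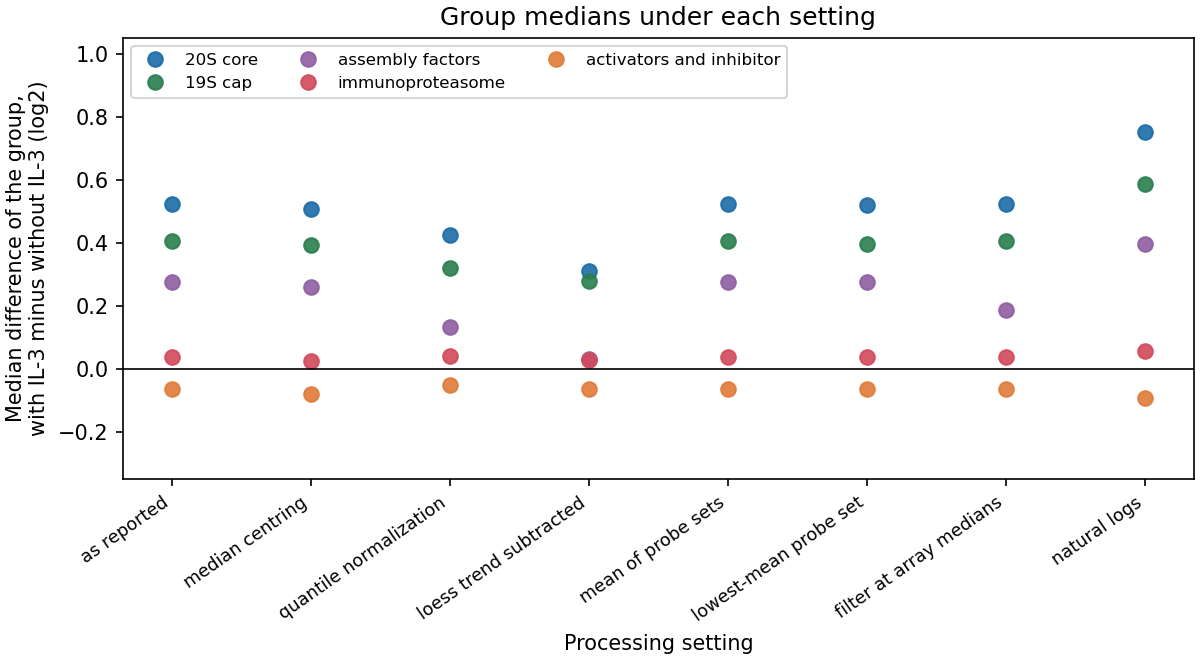
Median difference of each group (vertical axis, log2, with IL-3 minus without IL-3) under the reported setting and 7 alternatives (horizontal axis). The 20S core stays between 0.31 and 0.75 and the 19S cap between 0.28 and 0.59, the immunoproteasome between 0.02 and 0.05, and the assembly factors fall to 0.03 when the loess trend is subtracted.

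Because values carry no level, the label of the cell line could not be checked against its markers. The 12 measured B-lineage markers of 13 had differences from -0.35 to 0.23 (median 0.05). At least 1.5-fold lower with IL-3 were 5 of 11 granulocyte and 4 of 12 mast cell and basophil markers (2.71% of all genes). At least 2-fold lower were 5 and 3 of them (0.657%), with lowest differences of -2.87 and -2.46. These are larger than any proteasome difference. Above 0 were 3 of the 11 and 6 of the 12. Of 10 macrophage markers 1 was lower and 1 higher by that rule (2.71% and 3.52% of all genes), and of 7 T cell markers 1 was lower. Their part in the proteasome differences was not tested, and in bulk RNA fewer cells of a type and less RNA per cell cannot be told apart.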

How the data were processed

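RNA of 2 cultures was measured on 2 mouse Gene 1.0 ST arrays, 1 colour each, per the labels' protocols. The deposited values, which the authors summarised per probe set, are log values taken here as log2 and relative to a per-probe-set baseline: the medians were -0.03 with IL-3 and -0.05 without, and in 1760 of 28815 probe sets (6.11%) both values were equal and opposite. For log base, normalization and the baseline's arrays: not given in the sources used here. The platform annotation named 1 gene for 21780 probe sets, several for 1605 and none for 5430; all 50 matching genes had a RefSeq identifier. Differences, medians and counts past 1.5-fold and 2-fold were computed with pandas 2.3.3 under Python 3.11.15, beside the same over all genes, and the loess trend (fraction 0.3) with statsmodels 0.14.6; the code was tested on simulated data. With 1 array per group there is no test, and their number limits the precision. No filter on low values was applied. Motifs were sought in the first promoter listed per gene. The genes named with values are all immunoproteasome, activator, assembly and tissue-restricted genes, the 3 highest and 3 lowest of each core and cap set, and the 5 highest and 5 lowest of the ubiquitin-proteasome list; Psmb4, Psmd14 and the probe sets of Psmc1 and Psmd2 were added after values were seen. Members and lists were chosen with earlier results of these data known.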

Additional observations from a re-analysis of the deposited data

How the results depend on the processing

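The medians of the 5 groups and the counts of proteasome genes past 1.5-fold were recomputed under 7 alternatives. Of these 49 values, 42 stayed within the probe set SD (medians) or within 1.5 times (counts), and no median changed sign. Part of this was fixed beforehand. Only core and cap genes had repeat probe sets, so the choice of probe set could not move the other medians. Reading the values as natural logs rescales every difference alike and cannot change a sign. Median centring shifts every difference by the same amount, which was small because the array medians were close. The count of genes at least 1.5-fold lower was 0 under every setting, so it adds little to the 42. The count of genes at least 1.5-fold higher, 10 as reported, was 3 after quantile normalization, 2 with the loess trend subtracted and 24 if the values are natural logs. With the loess trend subtracted the 20S core median was 0.31 and the assembly factor median 0.032. As natural logs the 20S core median would be 0.75 and the 19S cap median 0.59. Of the 48 genes, 4 changed sign under an alternative, namely Psma4, Psma6, Psmd7 and Psmd10. The filter at the array medians removed 2 genes, Psmd9 and Psmb11, so among the 5 medians only that of the assembly factors could change. No paired analysis was possible because each group has 1 array. Without replicates, a difference of any gene cannot be set against the spread between cultures.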

Other observations

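The genes that match the symbol pattern without being parts of the proteasome also had values. Psmc3ip, which encodes HOP2, a partner of the meiotic recombinases, had 0.40 with IL-3 and -0.22 without, a difference of 0.62 (1.54-fold). Psme3ip1, which encodes a protein that binds PA28γ, had 0.24 and 0.21, a difference of 0.04.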
